A study of Mus musculus with 30 samples.

Results

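The aminoacyl-tRNA synthetase genes, which encode the enzymes that attach amino acids to their tRNAs, were followed in nuclear RNA-seq of mouse embryonic stem cells (mESCs) in which SRCAP was degraded. SRCAP is the catalytic subunit of the chromatin remodeler that deposits the histone variant H2A.Z. The members were a list of 37 genes matched by symbol, out of 55401 genes in the count tables. By name, 20 encode cytosolic enzymes and 17 encode enzymes with the mitochondrial suffix. Tarsl2 was counted with the latter by its symbol alone, since it codes for a threonyl-tRNA synthetase-like protein whose place in the cell was not measured.

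Every group held 2 libraries of nuclear RNA. Untagged parental CGR8 cells were left without or given 500 µM of the auxin IAA for 4 h. SYAT cells derive from 1 homozygous clone of CGR8 with YPet and an auxin-inducible degron (AID) on both alleles of SRCAP, which was transduced with the OsTir1 receptor, selected and sorted. They were taken without IAA or after 2, 4, 6 and 8 h of 500 µM IAA. Their medium without IAA held the Tir1 inhibitor auxinole, so that in SYAT cells the addition of IAA and the removal of auxinole cannot be told apart, and the labels name no auxinole for CGR8. SYAT cells sorted in early G1 (EG1) or late G1 (LG1) were compared without and with 1 h of IAA. SYAT clones expressing wild-type SRCAP (wtSRCAP) or a catalytically dead SRCAP (cdSRCAP) fused to mCherry received 1 µg/mL doxycycline for 24 h, and IAA for the last 4 h in the IAA groups. Each of these transgenes was represented by 1 clone, so clone and transgene cannot be told apart. IAA acts on the SRCAP protein, so its RNA was no check of the depletion.

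Each synthetase recognises 1 amino acid and joins it to the matching tRNAs, and the charged tRNAs then supply the ribosome. Cytosolic and mitochondrial translation use separate enzymes for most amino acids. Several cytosolic synthetases sit in a multi-synthetase complex held by scaffold proteins. Many cytosolic synthetase genes are textbook targets of ATF4, the transcription factor induced when uncharged tRNA or other stresses slow translation initiation, and ATF4 binds with C/EBP proteins to a composite element with the core TGATGNAA. Of the 20 cytosolic genes, 13 were grouped as known ATF4 targets (Aars, Cars, Eprs, Gars, Iars, Lars, Mars, Nars, Sars, Tars, Vars, Wars and Yars). The other 7 were Dars, Farsa, Farsb, Hars, Kars, Qars and Rars, and 8 cytosolic genes encode enzymes of the complex.

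The TGATGNAA letters were searched on both strands in RefSeq windows (GRCm38.p6) reaching from 250 bases before to 50 bases after each transcription start. Of the 37 members, 28 had a window, 1 of them (Mars) through its newer symbol, and Cars, Hars, Hars2, Lars, Nars, Pars2, Rars, Vars and Wars had none. The letters were found for 5 members, all among the 8 ATF4 targets with a window, and for 0 of 5 other cytosolic and 0 of 15 mitochondrial members. Of all 32851 windows of this length, 3.97% held them. A site of each gene is shown because 4 of these 5 genes (Aars, Iars, Tars and Yars) had lower intron counts at an unadjusted p under 0.05 in CGR8 after IAA. Gars, which held the letters, was not lower there at that level. Of the ATF4 targets with a window but no match, Sars was lower there, and Eprs and Mars were not. A link between the letters and these counts was not tested. Each sequence shown is 30 bases, read in the direction of the gene, with the element in capitals, and the last line gives the 30 bases before the start of Kars, whose window held no match to any motif searched.
Aars, chr8:111033840-111033869, plus strand, base 10 after the start: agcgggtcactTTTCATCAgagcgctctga
Gars, chr6:55037960-55037989, plus strand, 30 bases before the start: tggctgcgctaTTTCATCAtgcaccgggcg
Iars, chr13:49682126-49682155, plus strand, base 8 after the start: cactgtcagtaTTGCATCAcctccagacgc
Tars, chr15:11399655-11399684, minus strand, 15 bases before the start: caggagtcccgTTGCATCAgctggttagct
Yars, chr4:129189895-129189924, plus strand, base 4 after the start: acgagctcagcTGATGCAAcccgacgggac
Kars, chr8:112011355-112011384, minus strand, no match: ccggccgagggcccgccctctttcccggaa

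In Aars, Gars, Iars and Tars the element read as its reverse complement along the gene, and in Yars in the forward direction. The E-box CACGTG lay in the windows of Aars, Ears2, Farsb, Iars and Tars (5 members, against 7.15% of all windows). The NRF1 core GCGCATGC lay in those of the mitochondrial members Rars2, Vars2 and Wars2 (3 members, against 2.71%). The ETS letters CCGGAAGT lay in those of Farsa, Mars and Rars2 (3 members, against 3.89%). These motifs did not share letters with TGATGNAA. A match describes letters in a window and says nothing of binding in these cells.

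The exon columns held 12236493 to 60214521 counts per library. All 10 mESC markers exceeded 1 CPM (counts scaled to a common library total) in all 30 libraries (summed 1944 to 5250), while 5 fibroblast markers summed to 3.36 to 40.5 and 4 extraembryonic markers to 4.24 to 24.4. Intron columns were counted separately, as reads in the gene body outside exons. In CGR8, LG1, wtSRCAP and cdSRCAP libraries, intron totals were 0.0856 to 0.358 of the exon totals. For EG1 and for the SYAT libraries of 0 to 8 h they were 1.00 to 1.23 of them, and 35.4% to 48.2% of genes with 1 exon also had intron counts there, so those columns hold exonic reads. For SYAT the exon column was therefore taken off the intron column, and LG1 introns were not compared with EG1 introns. Of the members, 13 have exons that overlap a gene on the other strand (Mars with Ddit3, Hars with Hars2, Ears2 with Ubfd1, for example). Aars shares exonic bases with Exosc6, and Tarsl2 with Tm2d3. The strand setting of the counting is not given in the sources used here, so counts of these pairs may be mixed.

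All 37 members were expressed in untreated SYAT cells, and by median the nuclear RNA of the cytosolic members was several-fold higher than that of the mitochondrial ones. Levels are exon counts per kb of exon, scaled so that these values sum to the same total in each library (as in TPM). The cytosolic median was 92.1 (range 27.6 to 281.6) and the mitochondrial median 14.1 (3.12 to 195.2), against a median of 8.91 over the 17422 genes above 1. Kars, for lysine, was the highest at 281.6 ± 29.9 (SD, n = 2), followed among cytosolic members by Vars, Gars, Rars and Iars, at 193.7 ± 8.58, 175.5 ± 9.07, 165.1 ± 15.7 and 147.7 ± 1.69. The lowest cytosolic members were Cars, for cysteine, at 27.6 ± 0.421, Yars at 47.3 ± 2.93 and Dars at 54.1 ± 7.66. Among the mitochondrial members, Lars2 stood at 195.2 ± 13.0, Yars2 at 52.0 ± 1.35, Iars2 at 31.1 ± 3.11, Aars2 at 26.5 ± 5.15 and Sars2 at 25.5 ± 2.73. The Lars2 value sets the top of the mitochondrial range, but in CGR8 without IAA Lars2 was at 20.4 ± 8.97. Its exon counts spread widely between libraries, as described below, so its place in this order is not a stable level. Tarsl2, Nars2 and Wars2 were lowest, at 3.12 ± 0.293, 3.37 ± 0.102 and 3.83 ± 0.871. In this order, 19 of the 36 pairs of neighbours overlapped between libraries, among them Lars2 and Vars, Gars and Rars, and the run from Hars to Sars.

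**Figure D1:**
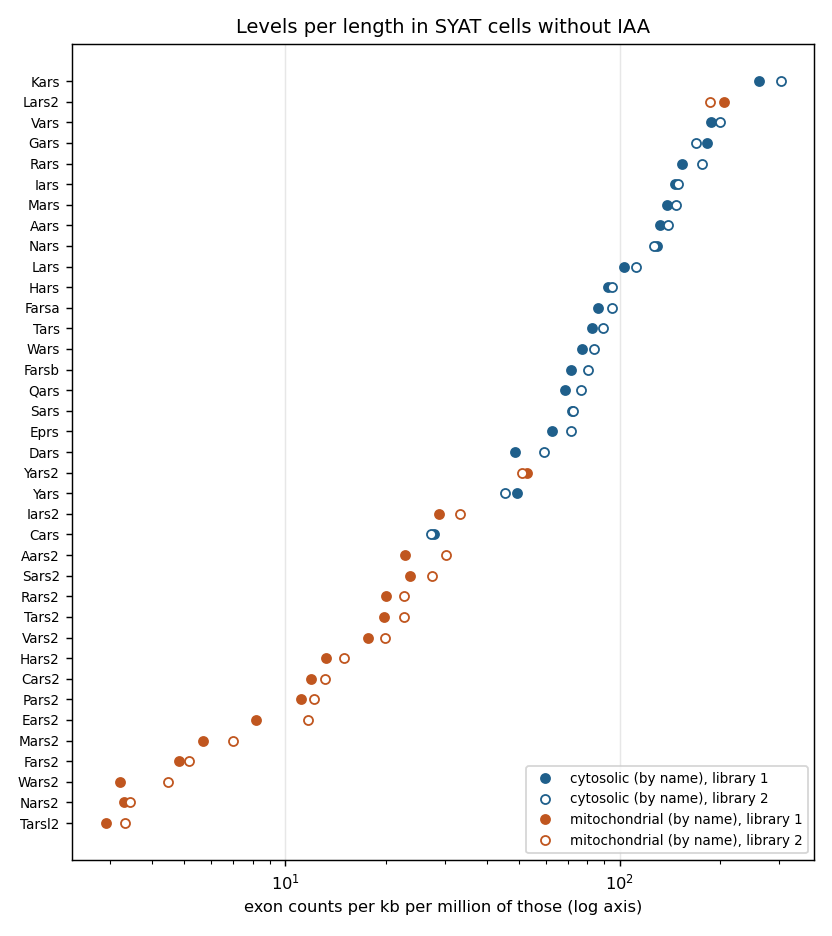
Levels of the 37 synthetase genes in the 2 SYAT libraries without IAA, in scaled exon counts per kb on a log axis, ordered by their mean (filled and open points, library 1 and 2; blue, cytosolic by name; orange, mitochondrial by name). Cytosolic members run from 27.6 for Cars to 281.6 for Kars, and mitochondrial members other than Lars2 and Yars2 lie at 31.1 or below.

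The clearest response of the synthetases to 4 h of IAA was in introns, and it centred on Cars. Normalized intron counts of Cars (counts divided by TMM-scaled library size and brought to a common scale within a table) were 588 and 607 in wtSRCAP cells without IAA and 287 and 230 with it. In cdSRCAP cells they were 574 and 581 without and 199 and 191 with IAA. In untagged CGR8 cells they were 1456 and 1465 without and 702 and 642 with IAA, so that the groups did not overlap in any of the 3 lines. CGR8 has no degron, so the lower counts in that line were seen without SRCAP degradation. In bulk nuclear RNA, fewer cells of a kind and less RNA per cell cannot be told apart. The p-values use a spread between biological duplicates estimated over all groups of a table, with 2 libraries a group. By edgeR's quasi-likelihood test with Benjamini-Hochberg adjustment over all genes, Cars fell in wtSRCAP (log2 fold change -1.22, SE 0.167, adjusted p = 0.0303) and in cdSRCAP (log2 fold change -1.56, SE 0.167, adjusted p = 0.0202). It missed the threshold in CGR8 (-1.12, SE 0.140, adjusted p = 0.0606). Across the comparisons by edgeR with condition alone and all libraries of a table, Cars was the member that passed the rule of an adjusted p under 0.05 and an absolute log2 fold change over 0.5, against 0.299% of genes in wtSRCAP introns, 0.236% in cdSRCAP introns and 0.022% in CGR8 introns. DESeq2 also called Fars2, Lars and Nars in wtSRCAP introns, where it called 1.43% of all genes. It called Fars2, Iars and Mars as well in cdSRCAP introns (1.37% of all genes), and Cars, Iars and Nars in CGR8 introns (0.323%). The calls were lost when any of the 4 libraries of the comparison was left out (adjusted p 0.0518 to 0.15 in wtSRCAP and 0.118 to 0.444 in cdSRCAP), with log2 fold changes of -1.07 or lower in each case. In wtSRCAP the call was also lost when that line was fitted alone (adjusted p = 0.243). The difference between the responses of cdSRCAP and wtSRCAP cells was -0.35 for Cars (SE 0.233, adjusted p = 1.00), so they were not shown to differ.

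Taking all members, intron counts were lower at an unadjusted p under 0.05 for 7 of 34 members tested in CGR8 (2.68% of all genes), for 13 of 35 in wtSRCAP (6.61% of all genes) and for 12 of 35 in cdSRCAP (7.49% of all genes). None was higher at that level, where 2.57%, 5.76% and 3.78% of all genes were. In CGR8 these were all ATF4 targets, in wtSRCAP 9 of 13 were and in cdSRCAP 8 of 12. The lists came from separate libraries, but wtSRCAP and cdSRCAP were fitted together with a shared estimate of spread. CGR8 and wtSRCAP shared 6 genes (85.7% of the former, 46.2% of the latter), CGR8 and cdSRCAP shared 5 (71.4% and 41.7%), and wtSRCAP and cdSRCAP shared 10 (76.9% and 83.3%). Aars, Cars, Iars, Nars and Tars were in all 3 lists. The overlap of the same lists over all genes was not counted, so these shares have no background to be read against. Mars2, which has a single annotated exon, and Vars2 were filtered out for low intron counts in CGR8 and in the joint fit of wtSRCAP and cdSRCAP, and Qars also in CGR8.

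Within the cytosolic class the 2 groups moved apart. The median log2 fold change of intron counts of the 13 ATF4 targets was -0.54 in CGR8, -0.75 in wtSRCAP and -0.58 in cdSRCAP. For the other cytosolic members it was 0.03, -0.05 and 0.10, and over all genes it was 0.01, 0.01 and 0.00. Qars weighed on the second group with 0 to 14.1 intron counts a library, and without it the wtSRCAP and cdSRCAP medians were 0.02 and 0.06. The mitochondrial medians were -0.10, -0.20 and -0.14. These are descriptions of the listed genes, and no test was made between the groups.

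**Figure D2:**
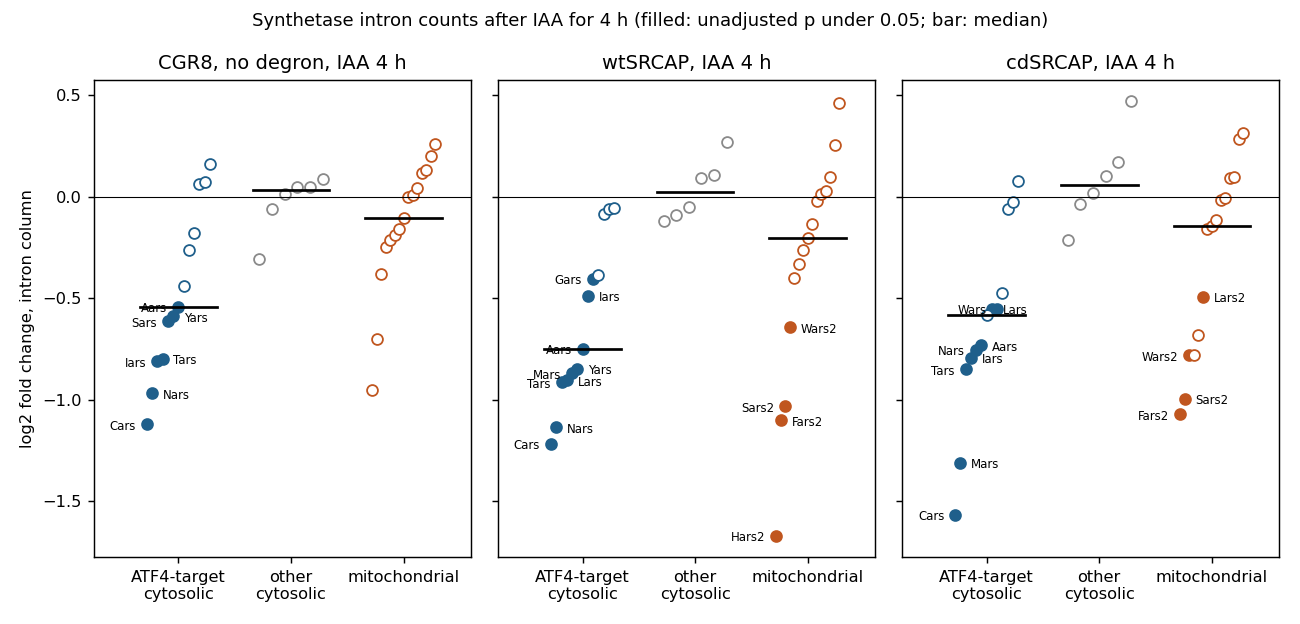
Log2 fold change of intron counts after 4 h of IAA in CGR8, wtSRCAP and cdSRCAP cells, each point 1 synthetase gene, in 3 groups, with Qars left out for its low counts. Filled points had an unadjusted p under 0.05 and bars are medians, which lie at -0.54, -0.75 and -0.58 for the ATF4 targets and between 0.02 and 0.06 for the other cytosolic members.

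Nars, the asparaginyl-tRNA synthetase, was among the ATF4 targets lower in all 3 lines at an unadjusted p under 0.05. Its normalized intron counts were 540 and 479 in CGR8 without IAA and 250.1 and 270 with it (log2 fold change -0.97, SE 0.195, adjusted p = 0.399). They went from 312 and 294 to 169 and 111 in wtSRCAP (-1.14, SE 0.280, adjusted p = 0.158) and from 237 and 176 to 101 and 143 in cdSRCAP (-0.75, SE 0.275, adjusted p = 0.331). The groups with and without IAA did not overlap in any line. Iars, for isoleucine, had 1628 and 1455 intron counts in CGR8 without IAA and 946 and 813 with it (-0.81, SE 0.148, adjusted p = 0.256). In wtSRCAP it had 751 and 689 against 590 and 442 (-0.49, SE 0.174), and in cdSRCAP 673 and 597 against 360 and 373 (-0.79, SE 0.173). Here too the groups were apart in each line. Tars, for threonine, stood at 395 and 306 in CGR8 without and 184 and 218 with IAA (-0.80, SE 0.238), at 160 and 115 against 67.2 and 77.7 in wtSRCAP (-0.91, SE 0.317), and at 114 and 120.1 against 48.9 and 80.3 in cdSRCAP (-0.85, SE 0.311). Aars, for alanine, went from 868 and 610 to 547 and 465 in CGR8 (-0.54, SE 0.206), from 385 and 450 to 226 and 269 in wtSRCAP (-0.75, SE 0.208), and from 262 and 319 to 154 and 196 in cdSRCAP (-0.73, SE 0.207).

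Other ATF4 targets met the unadjusted level in some lines and not in others. Mars, for methionine, had 203 and 254 intron counts in wtSRCAP without IAA and 89.6 and 156 with it (-0.87, SE 0.285), and 205 and 212 against 73.3 and 94.1 in cdSRCAP (-1.31, SE 0.285, adjusted p = 0.119). In CGR8 Mars had 356 and 539 against 348 and 315 (-0.44, SE 0.236). Lars, for leucine, had 783 and 886 against 385 and 503 in wtSRCAP (-0.90, SE 0.167, adjusted p = 0.0741) and 633 and 609 against 425 and 422 in cdSRCAP (-0.55, SE 0.165), with a log2 fold change of -0.18 (SE 0.144) in CGR8. Sars, for serine, met the level in CGR8, Yars, for tyrosine, in CGR8 and wtSRCAP, Gars, for glycine, in wtSRCAP (-0.40, SE 0.169) and Wars in cdSRCAP (-0.55, SE 0.194). In CGR8, Sars went from 820.2 and 807 to 554 and 510 (-0.61, SE 0.156) and Yars from 748 and 615 to 435 and 470 (-0.59, SE 0.177). In wtSRCAP, Yars had 247 and 316 without and 89.6 and 215 with IAA (-0.85, SE 0.355). Whether the lines differed in these responses was tested for wtSRCAP against cdSRCAP only, where the smallest unadjusted p among 35 members was 0.108 (edgeR). Eprs, the fused glutamyl- and prolyl-tRNA synthetase, and Vars had log2 fold changes between -0.08 and 0.08 in all 3 lines.

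None of the cytosolic members outside the ATF4 group was lower at an unadjusted p under 0.05 in these introns. Kars intron counts were 841 and 816 in CGR8 without IAA and 861 and 899 with it (0.09, SE 0.144), 245 and 270.0 against 301 and 320 in wtSRCAP (0.27, SE 0.201), and 231 and 316 against 291 and 326 in cdSRCAP (0.17, SE 0.197). Dars, for aspartate, had 1134 and 1290 against 1148 and 1360 in CGR8 (0.05, SE 0.151), with log2 fold changes of -0.12 (SE 0.172) in wtSRCAP and 0.10 (SE 0.171) in cdSRCAP. Rars and Farsb lay between -0.06 and 0.09, and Farsa, a phenylalanyl-tRNA synthetase subunit, was at -0.31 (SE 0.232) in CGR8, 0.11 (SE 0.217) in wtSRCAP and 0.47 (SE 0.217) in cdSRCAP. Membership of the complex did not separate the genes in the same way. Without Qars, its 7 genes had median log2 fold changes of 0.02 in CGR8, -0.12 in wtSRCAP and -0.03 in cdSRCAP, and in both clones Iars, Lars and Mars were the lowest of them. With Qars the wtSRCAP median was -0.30.

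**Figure D3:**
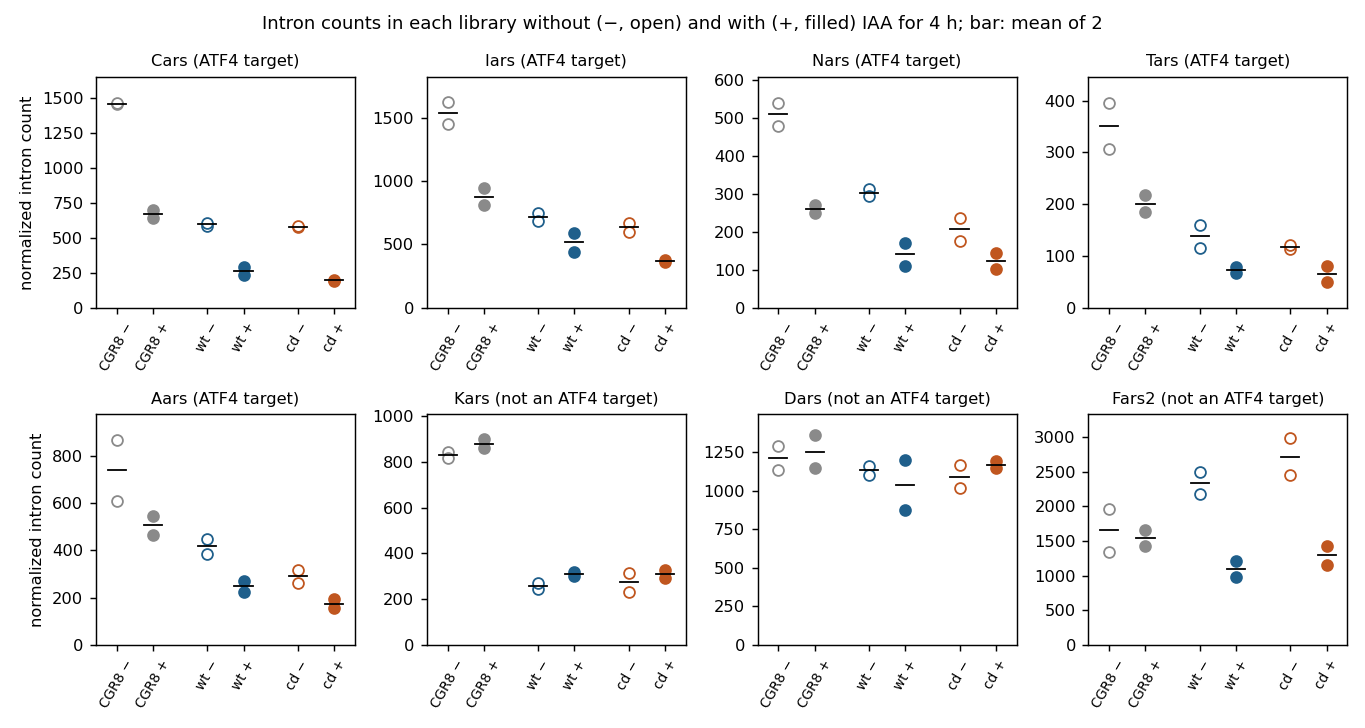
Normalized intron counts of 8 synthetase genes in each CGR8, wtSRCAP (wt) and cdSRCAP (cd) library without (open) and with (filled) IAA for 4 h, with the mean of 2 libraries as a bar. Cars, Iars, Nars, Tars and Aars are lower with IAA in every line, Kars and Dars are not, and Fars2 is lower in wt and cd, while its CGR8 groups overlap.

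Exon counts moved less. In CGR8, 10 of 37 members were lower at an unadjusted p under 0.05 (4.12% of all genes) and 0 higher (5.04% of all genes), and none passed the rule with adjusted p, as 0.00988% of genes did. These were Aars, Aars2, Cars, Gars, Mars, Nars, Sars, Sars2, Vars and Yars, of which 8 are ATF4 targets. The medians were -0.39 for the ATF4 targets, 0.02 for the other cytosolic members and -0.06 for the mitochondrial ones. Yars had 10800.0 and 8229 normalized exon counts without IAA and 6504 and 5809 with it (-0.63, SE 0.161, adjusted p = 0.540). Nars had 14660 and 13360 against 10500 and 9178 (-0.51, SE 0.134). Both genes passed the rule with DESeq2, as 0.691% of genes did. As 1 library at a time was left out, the cytosolic median in CGR8 ran from -0.34 to -0.10 in exons and from -0.25 to -0.18 in introns. Kars, with 25520 and 26040 against 27820 and 26760, was at 0.08 (SE 0.119). In wtSRCAP, 2 of 37 members were lower in exons (4.48% of all genes) and 0 higher (2.93% of all genes), with 0.00523% of genes passing the adjusted rule. In cdSRCAP, 2 were lower (3.99% of all genes) and 0 higher (1.65% of all genes), and 0% of genes passed. Cars exon counts were 1371 and 1613 without IAA and 1062 and 1161 with it in wtSRCAP, and 1186 and 1451 against 929.6 and 1188 in cdSRCAP, where the groups overlapped. The members lower in exons in these clones were Hars2 and Wars2 in wtSRCAP and Fars2 and Hars2 in cdSRCAP, all mitochondrial by name.

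In the SYAT time course no member passed the adjusted rule at any time by edgeR. The share of all genes passing in exons was 0% at 2 h and 4 h, 0.0677% at 6 h and 0.00521% at 8 h. At an unadjusted p under 0.05, 2 of 37 members were lower and 0 higher at 2 h (2.55% and 1.37% of all genes), and 3 lower and 0 higher at 4 h (6% and 3.09%). At 6 h, 2 were lower and 3 higher (8.21% and 7.93%), and at 8 h 7 lower and 1 higher (8.44% and 5.13%). The 7 at 8 h were Aars, Aars2, Cars, Hars2, Nars, Pars2 and Wars, and the higher one was Iars2, with a log2 fold change of 0.26. The ATF4 targets had exon medians of -0.03, -0.17, -0.04 and -0.24 at 2, 4, 6 and 8 h. Cars had 1427 and 1288 exon counts at 0 h, 1215 and 1299 at 2 h, 1081 and 1100 at 4 h, 877 and 1282 at 6 h and 968 and 957 at 8 h (log2 fold change at 8 h -0.50, SE 0.173, adjusted p = 0.251). The 4 times share the 2 control libraries, so they are not independent.

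With the exon column taken off, intron counts of SYAT cells gave lower medians for the ATF4 targets than for the other cytosolic members from 2 h on, a difference that was not tested. The medians of the ATF4 targets were -0.41, -0.30, -0.30 and -0.24 at 2, 4, 6 and 8 h, and those of the other cytosolic members 0.02, 0.08, 0.14 and 0.12, with medians over the 10138 genes tested of 0.00, -0.01, 0.00 and 0.00. The mitochondrial medians were -0.30, -0.10, -0.13 and -0.03. The ATF4 targets Mars and Yars, and Qars, Mars2, Nars2, Sars2 and Vars2, were filtered out of this column and are not in these medians. Taking exons off left Mars and Yars 0 counts in every SYAT library. In LG1 without IAA, whose column holds no exonic reads, Mars had 187 and 301 intron counts and Yars 270 and 413. A 0 in the subtracted column therefore need not mean that intron reads were absent. Of 30 members tested, 6, 5, 6 and 3 were lower at an unadjusted p under 0.05 (6.37%, 6.62%, 7.75% and 7.38% of all genes). At each time 1 was higher, which was Iars2 (4.36%, 4.57%, 5.99% and 5.81% of all genes). The lower members were Aars2, Cars, Lars, Lars2, Nars and Wars at 2 h, Aars, Aars2, Cars, Lars2 and Wars at 4 h, Aars2, Cars, Lars, Lars2, Nars and Wars2 at 6 h, and Cars, Wars and Wars2 at 8 h. Cars had 443 and 406 counts at 0 h, 245 and 253 at 2 h, 295 and 269 at 4 h, 260 and 352 at 6 h and 308 and 312 at 8 h, all below both control libraries. Its log2 fold changes were -0.77, -0.59, -0.47 and -0.45, and its values were lowest at 2 h. Nars had 179 and 175 at 0 h and 112 and 114 at 2 h (-0.65), and Lars 629 and 567 against 390 and 421 at 2 h (-0.56). The mitochondrial Aars2 had 61.1 and 84.5 at 0 h and 45.8 and 46.2 at 2 h (-0.66), and Lars2 had 229 and 236 against 110.4 and 148 (-0.84). For Lars2 this is a small remainder of nearly equal columns, with 871.3 exon and 873.2 intron CPM in the first library at 0 h. It is not used as a response. Kars had 315 and 333 at 0 h and 345 and 330 at 2 h (0.06). Iars2 had 167 and 166 at 0 h and between 204 and 246 in every library with IAA. The exons of Iars2 overlap Rab3gap2 and other genes on the opposite strand by 2148 bases in all, so its counts may be mixed with theirs. None of these members passed the adjusted rule in this subtracted column.

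Some SYAT values rested on a single library. At 6 h, Vars exon counts were 8307 and 15280 against 8190 and 8041 at 0 h, Vars2 919 and 1372 against 749.9 and 778, and Yars2 1324 and 2166 against 1297 and 1153. The second library at 6 h was the high one for all 3 genes. The cytosolic median of exons at 6 h ran from -0.18 to 0.086 as 1 library at a time was left out. At 8 h Vars had 9181 and 8985 and Yars2 1406 and 1280. Pars2, the mitochondrial prolyl-tRNA synthetase, was in contrast below both controls in all 8 libraries with IAA. It had 268 and 271 at 0 h, 182 and 202 at 2 h, 180 and 215 at 4 h, 204 and 256 at 6 h and 195 and 187 at 8 h (log2 fold change -0.49, -0.45, -0.23 and -0.50). Aars2 had 848 and 1031 at 0 h and 607 and 678 at 8 h (-0.55, SE 0.233). Wars, the cytosolic tryptophanyl-tRNA synthetase, had 2072 and 2070 at 0 h and 1639 and 1523 at 6 h (-0.39, SE 0.131).

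Hars2, the mitochondrial histidyl-tRNA synthetase, was the member with lower exon counts in the largest number of comparisons of SYAT-derived cells. It had 440 and 459 exon counts at 0 h, 283 and 289 at 2 h, 259 and 270 at 4 h, 261 and 363 at 6 h and 307 and 319 at 8 h. All 8 libraries with IAA were below both controls. The log2 fold changes were -0.65, -0.77, -0.53 and -0.52 (SE 0.186 to 0.187), with adjusted p from 0.213 to 0.897 by edgeR. In wtSRCAP Hars2 had 386 and 401 against 267 and 280 (-0.52, SE 0.218, adjusted p = 0.666), and in cdSRCAP 432 and 435 against 269 and 302 (-0.60, SE 0.217, adjusted p = 0.773). In CGR8 it had 1851 and 1540 against 1565 and 1677 (-0.06, SE 0.159), and these groups overlapped. Whether Hars2 responded differently in CGR8 was not tested, because the tables were normalized separately. Intron counts of Hars2 in CGR8 were 180 and 118 without and 105 and 78.3 with IAA (-0.70, SE 0.349), and in wtSRCAP 46.3 and 69.5 against 20.4 and 16.5 (-1.67, SE 0.466, adjusted p = 0.202). In cdSRCAP introns Hars2 was not lower at an unadjusted p under 0.05 by edgeR. In SYAT introns with the exon column taken off it was at -0.76, -1.07, 0.02 and -0.73 at 2, 4, 6 and 8 h. It did not meet that level at any of these times. Hars2 lies head to head with Hars, and their exons overlap by 195 bases on opposite strands. Hars exon counts had log2 fold changes of -0.14, -0.26, -0.01 and -0.34 at 2, 4, 6 and 8 h, 0.10 in wtSRCAP and -0.09 in cdSRCAP.

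**Figure D4:**
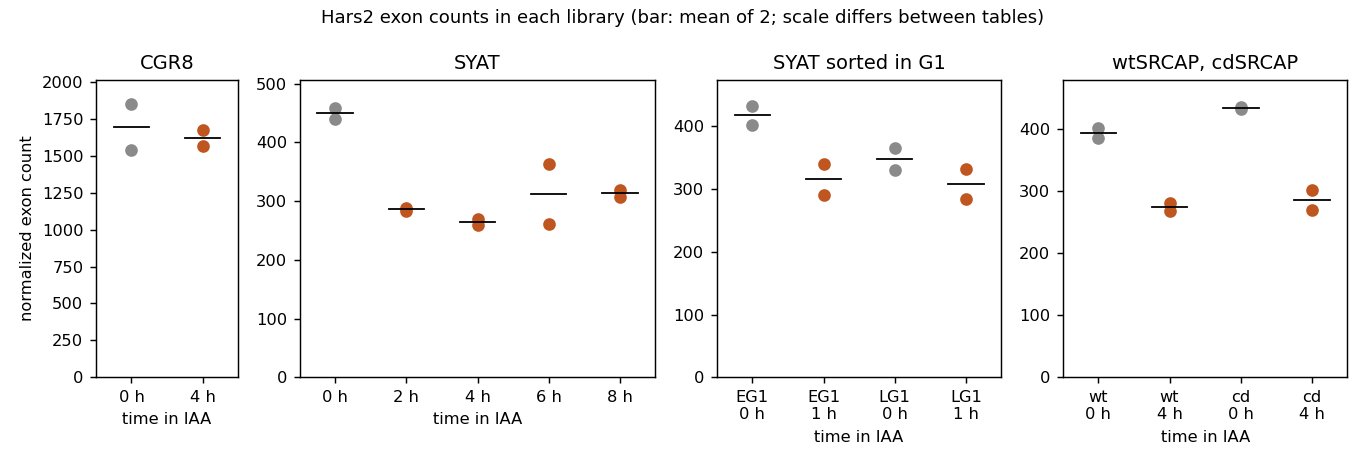
Normalized exon counts of Hars2 in each library (points; bar, mean of 2), without IAA (grey) and with IAA (orange), on a scale set within each of 4 count tables. All SYAT time course, wtSRCAP and cdSRCAP libraries with IAA lie below the matching libraries without it, while the CGR8 groups and the LG1 groups overlap.

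Fars2, the mitochondrial phenylalanyl-tRNA synthetase, had lower intron counts with IAA in both clones. Its intron counts were 2490 and 2181 in wtSRCAP without IAA and 1209 and 973 with it (-1.10, SE 0.186, adjusted p = 0.0536). In cdSRCAP they were 2977 and 2453 against 1433 and 1151 (-1.07, SE 0.184, adjusted p = 0.0554), and the groups were apart in both clones. In CGR8 they were 1346 and 1959 against 1657 and 1430 (-0.10, SE 0.188). Fars2 exon counts were 372 and 267 against 180 and 190 in cdSRCAP (-0.78, SE 0.261) and 256 and 239 against 172 and 168 in wtSRCAP (-0.54, SE 0.263). The gene spans several others on both strands, so part of its intron counts may belong to them. Wars2, for tryptophan, had 190.4 and 214 exon counts in wtSRCAP without IAA and 69.9 and 101 with it (-1.23, SE 0.311, adjusted p = 0.622), and 210.4 and 182 against 112 and 146 in cdSRCAP (-0.60, SE 0.304). Its intron counts were 536 and 607 against 350.2 and 380.2 in wtSRCAP (-0.64, SE 0.191) and 521 and 739 against 367 and 366 in cdSRCAP (-0.78, SE 0.188), with 576 and 659 against 659 and 615 in CGR8. Sars2 intron counts were low, at 53.8 to 77.5 without and 28.3 to 40.1 with IAA across both clones. The remaining mitochondrial members (Aars2, Cars2, Ears2, Iars2, Nars2, Pars2, Rars2, Tars2, Tarsl2 and Yars2) passed neither level in the introns of these lines.

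After 1 h of IAA in sorted SYAT cells, the cytosolic synthetases were flat in exons. Their log2 fold changes ran from -0.05 to 0.11 in EG1 and from -0.01 to 0.15 in LG1, and the medians were 0.05 and 0.06. In EG1 1 member was lower at an unadjusted p under 0.05 (1.03% of all genes) and 0 higher (0.19%), and 0% of genes passed the adjusted rule. This was Hars2, with 403 and 432 exon counts without and 291 and 341 with IAA (-0.40, SE 0.160, adjusted p = 1.00). In LG1 0 members were lower (0.733% of all genes) and 1, Lars2, higher (0.285%), with 0% of genes passing the adjusted rule. Hars2 in LG1 had 330 and 366 against 283 and 332 in exons (-0.18, SE 0.161), where the groups overlapped. In introns it had 145 and 165 against 65.0 and 97.3 (-0.94, SE 0.262) and was the 1 member lower there (2.7% of all genes, and 0% by the adjusted rule). In EG1 introns, whose column holds exonic reads, Fars2 was the 1 lower member (1.89% of all genes, and 0.00573% by the adjusted rule), with 1930.0 and 1267 against 799 and 1020. With the exon column taken off, 2 of 34 members were lower in EG1 (2.96% of all genes) and 0 higher (1.9%), and they were Hars2 and Lars2. Mars, Yars, Nars2 and Sars2 were among the 34 but had 0 counts left in EG1. Hars2 then had 77.0 and 82.3 against 54.5 and 48.7 (-0.62, SE 0.263) and Lars2 302.2 and 204 against 108 and 184 (-0.79, SE 0.322). The exon and intron columns of Lars2 were close (93.3 and 87.9 CPM in the first EG1 library with IAA), so its remainder is not used as a response. Fars2 was then at -0.71 (SE 0.327), with an unadjusted p over 0.05 by edgeR. The response of Hars2 exons in LG1 differed from that in EG1 by 0.23 (SE 0.227, adjusted p = 1.00), and no member passed this test in exons (smallest unadjusted p 0.0636 by edgeR). Between untreated LG1 and EG1 cells, 0 members were lower and 0 higher in exons (0.733% and 0.709% of all genes, and 0% by the adjusted rule). Cars intron counts were 1317 and 1591 against 1352 and 1851 in LG1 (0.14, SE 0.207), and those groups overlapped.

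The dead and the wild-type SRCAP were compared directly. Without IAA, the exon counts of all 20 cytosolic members were lower in cdSRCAP than in wtSRCAP by small amounts (log2 fold changes -0.40 to -0.07, median -0.18). Of all 19111 genes tested, 9948 were lower, with a median of -0.02. At an unadjusted p under 0.05, 0 of 37 members were lower or higher, where 1.32% and 2.5% of all genes were. The adjusted rule was passed by 0% of genes. The cytosolic median depended on single libraries. It was 0.12 without the first cdSRCAP control library and 0.06 without the second wtSRCAP control library. In introns 3 members were lower at an unadjusted p under 0.05 (2.16% of all genes) and 0 higher (4.91%), with 0.102% of genes passing the adjusted rule. These were Aars (-0.52, SE 0.204), Lars (-0.43, SE 0.164) and Farsa (-0.67, SE 0.218). With IAA, 4 members were lower (4.39% of all genes) and 1 higher (5.82%) in introns, with 0.0157% of genes passing the adjusted rule. In exons 0 members were lower (2.19% of all genes) and 0 higher (2.84%), with 0.00523% of genes passing the adjusted rule. The lower ones in introns were Aars, Cars, Iars and Yars2, and the higher one was Nars2, with 655 and 728 in cdSRCAP against 397 and 485 in wtSRCAP (0.64, SE 0.177, adjusted p = 0.297). Without IAA Nars2 had 610.1 and 789 against 569 and 546, and those groups did not overlap either. The difference between the responses to IAA passed the adjusted rule for 0 of 35 members in introns (0% of genes) and for none in exons, by edgeR, with 0 members at an unadjusted p under 0.05.

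Lars2, the mitochondrial leucyl-tRNA synthetase, stood apart from the other members by its spread between libraries. In CPM of the exon column it ran from 16.4 to 1431 over 30 libraries, an 87.3-fold range. SYAT libraries held 871 and 767 at 0 h, 505 and 453 at 2 h, 171 and 205 at 4 h, 146 and 1431 at 6 h and 92.5 and 427 at 8 h. Replicates of 1 group disagreed by up to 44.4-fold, against at most 2.3-fold for Rars, the next of the 37 members. That pair was LG1 with IAA, at 835 and 16.4, and the higher Lars2 value in LG1 (log2 fold change 3.86) became -0.641 without the first of these libraries. In the 16 libraries whose intron column holds no exonic reads, Lars2 intron CPM ranged from 35.6 to 97.6, a 2.74-fold range. The wide spread was seen in the exon column, and no log2 fold change of Lars2 exons is used as a response. By introns, Lars2 had 280.1 and 303 counts in cdSRCAP without IAA and 194 and 220.4 with it (-0.49, SE 0.176), and 270.2 and 291 against 263 and 249 in wtSRCAP (-0.14, SE 0.178).

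**Figure D5:**
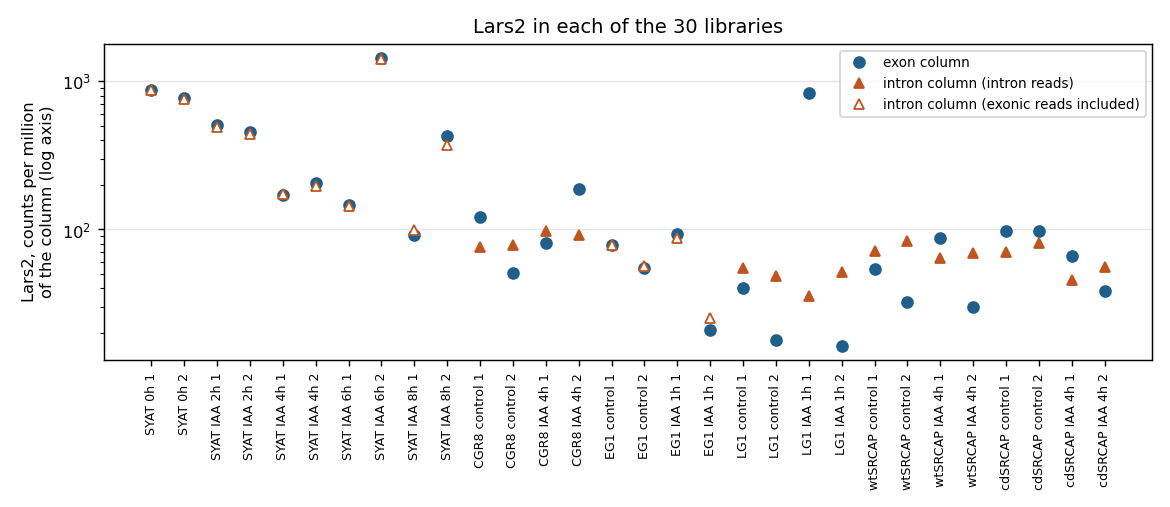
Lars2 CPM of the exon column (circles) and of the intron column (triangles; open where that column holds exonic reads) in each of 30 libraries, on a log axis. Exon values range from 16.4 to 1431 and differ strongly within pairs of replicates, while the filled intron values stay between 35.6 and 97.6.

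Of 14 genes that work beside the synthetases, such as the complex scaffolds Aimp1, Aimp2 and Eef1e1 and the tRNA exporter Xpot, the one seen most often was Sepsecs, which converts phosphorylated seryl-tRNA to selenocysteinyl-tRNA. Sepsecs had 378 and 420 exon counts in SYAT cells at 0 h, 269.6 and 282 at 2 h, 237 and 245 at 4 h, 234 and 225 at 6 h and 221 and 270.4 at 8 h, all below both controls (log2 fold change -0.53, -0.73, -0.80 and -0.70, adjusted p 0.0850 at 6 h). In wtSRCAP it had 357 and 346 against 124 and 245 (-0.91, SE 0.319) and in cdSRCAP 367 and 390.0 against 218 and 253 (-0.68, SE 0.316), whereas in CGR8 it had 1078 and 1215 against 1232 and 1262 (0.12, SE 0.157). In SYAT exons, 1 of the 14 genes was lower at an unadjusted p under 0.05 at 2 h, 2 at 4 h, 2 at 6 h and 3 at 8 h (2.55%, 6%, 8.21% and 8.44% of all genes), and 1 was higher at 8 h (Eef1e1, 5.13% of all genes).

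The wider amino acid response, a list of 28 regulators, transporters and synthesis enzymes that share ATF4 with the cytosolic synthetases, was lower in CGR8 with IAA. In exons 17 of 28 were lower and 0 higher at an unadjusted p under 0.05 (4.12% and 5.04% of all genes), with a median log2 fold change of -0.43. In introns 14 of 21 were lower (2.68% of all genes), with a median of -0.62. Atf4 itself had 6078 and 5101 exon counts without IAA and 1868 and 1999 with it (log2 fold change -1.53, SE 0.149, adjusted p = 0.0444). The glutamate and neutral amino acid transporter gene Slc1a4 had 1782 and 2271 against 571 and 577 (-1.82, SE 0.178, adjusted p = 0.0444). In wtSRCAP introns 10 of 21 were lower (6.61% of all genes), with a median of -0.72, and Aldh18a1, for proline synthesis, went from 284 and 356 to 108 and 123 (-1.46, SE 0.220, adjusted p = 0.0375). In cdSRCAP introns 6 of 21 were lower (7.49% of all genes), with a median of -0.50. In SYAT exons 2, 5, 6 and 7 of 28 were lower at 2, 4, 6 and 8 h (2.55%, 6%, 8.21% and 8.44% of all genes), and 0 were higher. The medians there were 0.07, -0.10, -0.01 and -0.12, so the list as a whole was not lower at 2 h, when 15 of 28 had a positive log2 fold change. What part IAA itself had in the synthetase values of the degron lines was not tested.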

How the data were processed

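Nuclear RNA of 30 libraries from mESCs (15 groups of 2 biological duplicates, 500 µM IAA in the treated groups) was sequenced as strand-specific libraries. Per the labels, reads were aligned with STAR to mm10 with GENCODE annotation and counted with featureCounts. The deposited values are raw read counts per gene, which the authors gave for exons and for introns (gene body without exons) in 4 tables, and no pooled or normalized values were used. The members and gene lists were chosen with earlier results of these data known. Each table and column was tested separately over all genes with edgeR 4.0.16 (R 4.3.3, TMM, quasi-likelihood test, filterByExpr with a minimum count of 10), with Benjamini-Hochberg adjustment, and a call needed an adjusted p under 0.05 and an absolute log2 fold change over 0.5. Normalized counts are comparable only within a table. Levels per length used exon lengths of a different GENCODE release of the same assembly (vM21), matched by gene identifier. Values in every library were given for members that passed this rule and for up to 6 members a table and column with the smallest unadjusted p under 0.05 and an absolute log2 fold change over 0.5. Levels name the 5 highest and 3 lowest of each class, and other members (such as Kars, Dars, Hars and Pars2) and genes of the partner and amino acid response lists were singled out after their values were seen. Alternatives were DESeq2 1.42.0, another scaling, no filter, a replicate block, single comparisons, each library left out and, chosen after seeing the data, the EG1 intron column with exons taken off. Scripts were tested on simulated data. Depth and its effect on intron columns are given in the results. Replicate numbers were shared by 2 libraries per group only and were not used as pairs. A further promoter sequence from the same windows is not reported here.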

Additional observations from a re-analysis of the deposited data

How the results depend on the processing

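Among named members, log2 fold changes kept their direction and side of the threshold in 388 alternatives, passed it in 71 more, lost it in 9 and changed sign in 2. Only comparisons in which a named member had an unadjusted p under 0.05 in the main edgeR analysis were counted. The named members were themselves picked by small p and large log2 fold change, and the alternatives refit the same libraries. Agreement in direction was thus largely set in advance and says nothing of other members. The signs changed for Lars2 exons in LG1 (-0.641 without the first library with IAA, leave-one-out range -0.641 to 4.841) and for Hars2 introns at 6 h with the exon column taken off (0.021). With that column taken off, the SYAT intron median of cytosolic members at 8 h became 0.027 and that of mitochondrial members at 6 h -0.13. The cause was not tested. The number of members called in CGR8 exons, 0 in the main analysis, was 2 under DESeq2 (0.691% of all genes). It was also 2 with the replicate block in edgeR (2.47%) and in DESeq2 (2.02%), and without a filter. Shares of all genes are not given for fits without a filter or fitted alone. In CGR8 introns it was 3 under DESeq2 (0.323% of all genes) and without a filter. With the replicate block it was 2 in edgeR (0.227%) and in DESeq2 (0.0953%), and the cytosolic median without a filter was -0.21. In wtSRCAP introns, against 1, it was 4 under DESeq2 (1.43% of all genes) and 7 with the block in DESeq2 (3.93%). It was 4 with the replicate block in edgeR (2.3%), 4 without a filter and 0 when fitted alone. In cdSRCAP introns, against 1, it was 4 under DESeq2 (1.37% of all genes) and 7 with the block in DESeq2 (3.46%). It was 6 with the replicate block in edgeR (2.52%), 5 without a filter and 2 when fitted alone. The cytosolic median there was -0.48 with Tarsl2 among the cytosolic enzymes and -0.47 when fitted alone. Counts of 1 or 2 in place of 0 came up as follows. Without a filter it was 1 at 2, 4, 6 and 8 h in SYAT exons, in LG1 exons, in LG1 against EG1, in cdSRCAP against wtSRCAP exons without IAA and in their introns with IAA. With the block in DESeq2 it was 1 in SYAT exons at 4 and 6 h (1.78% and 6.33% of all genes) and SYAT introns at 4 h (2.69%). It was also 1 in LG1 introns (1.44%) and in exons (2.12%) and introns (2.72%) of cdSRCAP against wtSRCAP with IAA. In wtSRCAP exons it was 2 (4.19%). With the replicate block in edgeR it was 1 in wtSRCAP exons (3.2% of all genes) and cdSRCAP exons (1.81%). It was also 1 in cdSRCAP against wtSRCAP exons without IAA (0.91%) and their introns with IAA (1.89%). When fitted alone it was 1 in both SYAT columns at 4 h, and DESeq2 gave 1 in SYAT introns at 4 h (1.83% of all genes). The thresholds of the study gave 1 in EG1 exons (1.22% of all genes), EG1 introns (2.28%), LG1 exons (1.02%) and LG1 introns (3.94%). With the replicate block in edgeR, the members called in introns were Aars, Cars, Fars2 and Lars in wtSRCAP and Aars, Cars, Fars2, Iars, Mars and Wars2 in cdSRCAP. The replicate numbers cover 2 libraries a group, and their deviations correlated between -0.04 and 0.62.

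Leaving out 1 library at a time left 1 library in a group. The number of members called then varied with the library left out. It is not given, as no share of all genes stands beside it. The medians below are of these fits. Cytosolic medians ranged from -0.34 to -0.10 in CGR8 exons, -0.25 to -0.18 in CGR8 introns, -0.13 to 0.36 in EG1 introns, -0.18 to 0.086 and -0.30 to -0.081 in SYAT exons at 6 and 8 h, -0.22 to 0.079 and -0.26 to -0.074 in SYAT introns at 6 and 8 h, -0.44 to -0.24 in cdSRCAP introns, -0.37 to -0.30 in wtSRCAP introns, -0.60 to 0.12 in cdSRCAP against wtSRCAP exons without IAA and -0.31 to -0.059 in their introns with IAA. Mitochondrial medians ranged from -0.20 to 0.087 in CGR8 exons, -0.23 to 0.046 in CGR8 introns, -0.058 to -0.024 in EG1 exons, -0.097 to 0.0064 in LG1 exons, -0.099 to 0.015 in LG1 against EG1, -0.35 to -0.094 in LG1 introns, -0.29 to 0.22 in SYAT exons at 6 h, -0.24 to -0.0096, -0.14 to 0.20 and -0.23 to 0.14 in SYAT introns at 4, 6 and 8 h, -0.21 to -0.026 in cdSRCAP exons, -0.20 to -0.040 in wtSRCAP exons, -0.065 to 0.036 in cdSRCAP against wtSRCAP exons with IAA, -0.087 to 0.037 in those without, -0.019 to 0.025 in their introns without IAA and -0.30 to -0.16 in wtSRCAP introns. Intron depth limits members such as Qars, Sars2 and Hars2.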
